A study of Mus musculus with 12 samples.

Results

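Afp, H19, Igf2, Igf2bp1, Igf2bp2, Igf2bp3, Gpc3, Cd24a and Dlk1 are genes of the fetal liver whose transcripts are low in the adult organ and return in some liver tumours. The 9 genes were chosen by name, out of 32285 genes in the count matrices, and their spliced, unspliced and ambiguous UMIs (unique molecular identifiers, each 1 captured RNA molecule) were added and followed in single nuclei. The study compared liver tissue (Liver), the hepatocyte suspension obtained by collagenase perfusion and low-speed spins (Cell Suspension) and hepatocytes attached and kept for 24 h in culture (Primary Hepatocytes). Each of 8 mice gave 1 sample of each kind, 24 samples in all, carried as hashtagged nuclei in 6 pools of 4 samples. All mice were wild-type males of 10 to 12 weeks on chow, of a C57BL/6 substrain that the labels give as C57BL6J and the study's methods as C57BL/6NTac. The Liver sample was a lobe cut off after calcium-free perfusion, before collagenase, so all 3 sample types share that perfusion. The suspension was washed in a medium with 10% serum, in which the cells were later also plated. In culture they had 0.5% serum with dexamethasone at 1 µM and insulin at 1 nM, and they were detached with trypsin before nuclei were prepared. Attachment, time in culture, hormones and detachment thus arrive together and cannot be told apart.

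Alpha-fetoprotein, encoded by Afp, is the main serum protein of the fetus and is replaced by albumin after birth, when repressors such as Zhx2 and Zbtb20 hold the gene down. Igf2, a fetal growth factor, and the noncoding RNA H19 lie in 1 imprinted domain, and the Igf2bp genes encode RNA-binding proteins that were named for their binding to Igf2 mRNA. Gpc3, Cd24a and Dlk1 encode proteins of the cell surface: a heparan sulfate proteoglycan, a small anchored glycoprotein and a Notch-ligand-like protein of hepatoblasts.

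The authors' table holds 53467 nuclei, of which 15000 Liver, 12634 Cell Suspension and 14833 Primary Hepatocytes nuclei were classed as hepatocytes. UMIs in hepatocyte nuclei ran from 6860168 to 29018248 per Liver sample, from 2065229 to 17389720 per Cell Suspension sample and from 9596129 to 20300379 per Primary Hepatocytes sample. The 9 hepatocyte marker genes summed to a median over samples of 13229 CPM (UMIs of a gene scaled to a fixed total per sample) in Liver, 15051 CPM in Cell Suspension and 3353 CPM in Primary Hepatocytes hepatocyte nuclei. Hepatocyte markers were thus present but lower in culture. They did not by themselves separate the cultured classes, as cultured endothelial nuclei had a median of 2783 CPM. They summed to 3215, 4159, 2714 and 5202 CPM in the authors' cultured clusters 0, 1, 14 and 17, classed as hepatocytes. Endothelial cluster 12 had 3113 CPM and cluster 8, left unnamed, 7824 CPM. In hepatocyte nuclei the 9 endothelial markers summed to 31.1 to 49.4 CPM in Liver and 106 to 168 CPM in Primary Hepatocytes, and the 9 stellate markers to 29.7 to 59.1 CPM and 96.0 to 664 CPM. No marker of either list was at 0, and the part of these RNAs in the results below was not tested. A barcode sequence recurred in more than 1 pool in 337 cases, and each was read within its pool. Only pools 2 and 5 hold both Liver and Primary Hepatocytes samples.

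The window of 250 bases before the RefSeq start (GRCm38.p6) is shown for the 3 members that differed most between Liver and Primary Hepatocytes among those with over 100 UMIs in each sample type: Afp at chr5:90490464-90490713 on the plus strand, Igf2bp2 at chr16:22163300-22163549 on the minus strand and Gpc3 at chrX:52613975-52614224 on the minus strand. Each is printed 5′ to 3′ in the direction of transcription. Capitals mark matches, on either strand, to 3 motifs. One is the HNF1 site, spelled GTTAAT. Another is the TATA box, spelled TATAAA. The last is the GC box, spelled GGGCGG, whose letters are read in reverse complement here. No match overlaps a match of another motif.
Afp: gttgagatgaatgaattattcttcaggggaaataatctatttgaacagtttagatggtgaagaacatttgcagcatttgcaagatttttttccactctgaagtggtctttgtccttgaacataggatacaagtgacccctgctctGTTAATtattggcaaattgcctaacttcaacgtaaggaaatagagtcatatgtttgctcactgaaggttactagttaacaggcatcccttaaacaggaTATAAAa
Igf2bp2: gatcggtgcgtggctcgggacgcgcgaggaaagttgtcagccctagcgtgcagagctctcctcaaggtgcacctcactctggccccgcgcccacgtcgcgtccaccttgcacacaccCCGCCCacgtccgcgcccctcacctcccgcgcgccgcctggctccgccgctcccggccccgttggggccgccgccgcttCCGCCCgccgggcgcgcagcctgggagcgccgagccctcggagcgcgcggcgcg
Gpc3: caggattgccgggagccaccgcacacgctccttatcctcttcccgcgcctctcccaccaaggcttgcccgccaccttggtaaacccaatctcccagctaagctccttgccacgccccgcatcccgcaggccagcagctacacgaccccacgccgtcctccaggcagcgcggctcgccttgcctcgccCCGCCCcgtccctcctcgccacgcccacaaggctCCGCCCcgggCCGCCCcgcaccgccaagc
The Afp window holds 1 HNF1 site and 1 TATA box and no GC box, and 36% of its bases are G or C. The Igf2bp2 window holds 2 GC boxes at 77.2% G or C, and the Gpc3 window holds 3 at 71.6%. Over all 32851 windows of this length the median G or C content was 52.4%, the HNF1 site stood in 6.43%, the TATA box in 12.4% and the GC box in 32.7%. An E-box (CACGTG, 6.02% of windows) and an AP-1 site (TGACTCA, 4.46%) were also searched and stood in none of these 3 windows. The letters show base content and matches only and say nothing of what binds there. Windows were given for 6 of the 9 members.

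In hepatocyte nuclei, Igf2bp2 and Gpc3 rose about 5-fold in culture while Afp fell about 6-fold, and Igf2bp3 was lowest in the suspension. Igf2 and Dlk1 were at a few UMIs in every sample type, and H19 had 1 UMI in all hepatocyte nuclei together. Values below are UMIs summed per sample and scaled by edgeR's TMM factors to CPM, unless plain CPM is named. Between Primary Hepatocytes and Liver, 5 of the 8 members tested passed the quasi-likelihood test of edgeR, adjusted by Benjamini-Hochberg over 26521 genes, at 0.05, 3 higher and 2 lower. The same test called 54.1% of all genes tested, 27.4% higher and 26.7% lower, so most genes were called and a call by itself does not set a member apart. For Cell Suspension against Liver 3 members were called, 1 higher and 2 lower, where 21.5% of all genes were called, 7.69% higher and 13.8% lower. For Primary Hepatocytes against Cell Suspension 5 were called, 3 higher and 2 lower, where 51.6% of all genes were called, 27.6% higher and 24% lower. H19 had too few counts for the test.

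**Figure D1:**
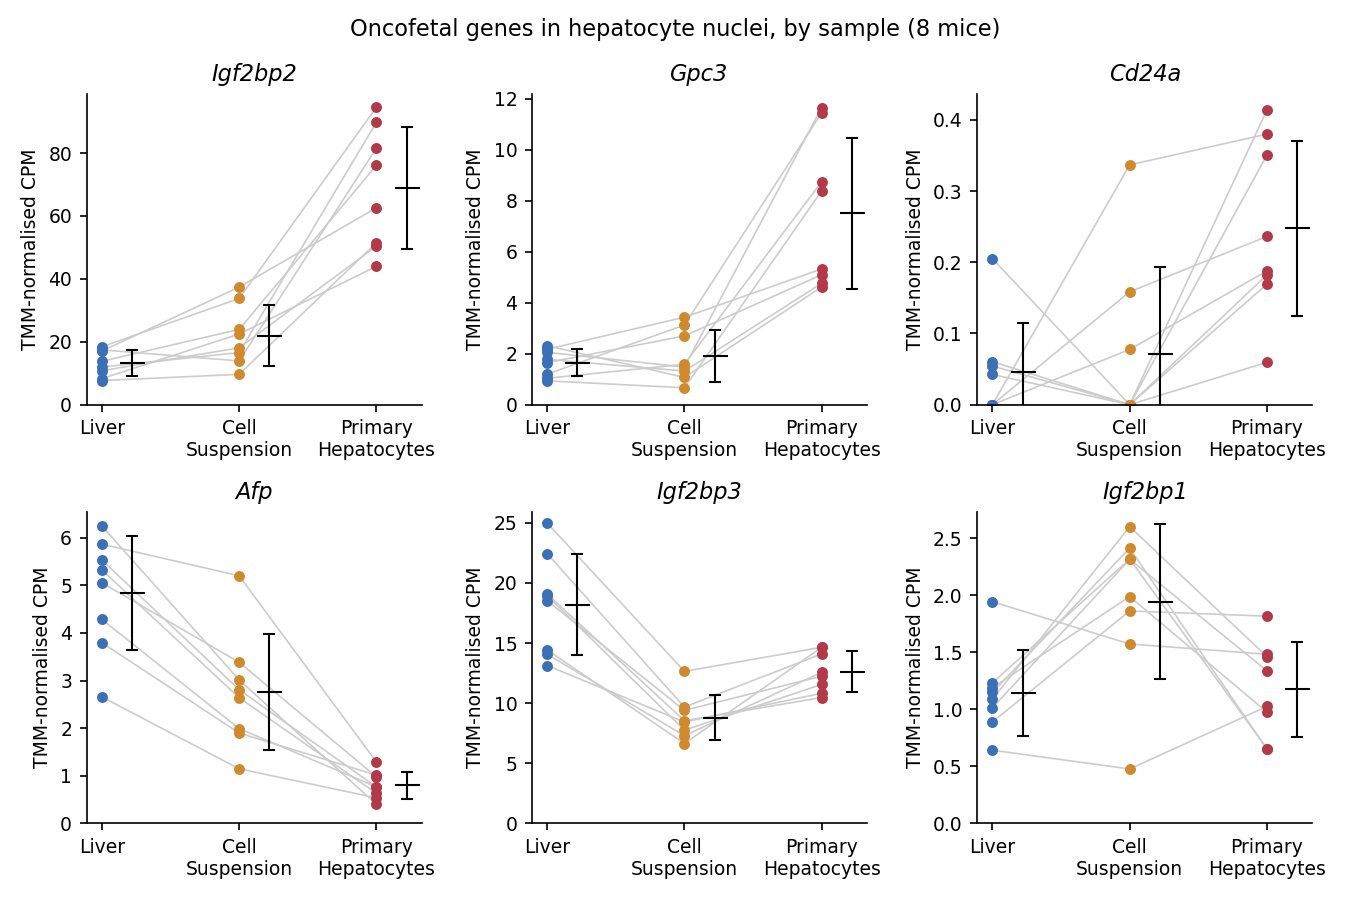
Level of 6 members in hepatocyte nuclei of each of the 24 samples, in TMM-scaled CPM on linear axes that start at 0, by sample type, with points for samples, grey lines joining samples of 1 mouse, horizontal bars for the mean of 8 and whiskers for 1 SD (clipped at 0 for Cd24a). The Igf2bp2 and Gpc3 points of Primary Hepatocytes lie above every Liver point, and the Afp points below every Liver point.

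Afp (ENSMUSG00000054932, chr5:90490737-90508907 on the plus strand of GRCm38) fell from Liver through the suspension to culture. Its lowest, median and highest Liver samples had 2.66, 5.19 and 6.25 CPM. Those of Cell Suspension had 1.14, 2.72 and 5.20 CPM. Those of Primary Hepatocytes had 0.394, 0.761 and 1.29 CPM. Every cultured sample lay below every Liver sample, and the suspension overlapped both. Samples of these sample types were likewise separate, in either direction, for 30.7% of all genes. The means were 4.85 ± 1.19, 2.76 ± 1.22 and 0.793 ± 0.288 CPM (SD, n = 8 each). By the quasi-likelihood test of edgeR, adjusted by Benjamini-Hochberg, the log2 difference was -2.59 (SE 0.23, adjusted p = 3.69e-11, 6.02-fold lower in Primary Hepatocytes, lower in 8 of 8 mice). The step from Liver to Cell Suspension was -0.91 on the log2 scale (SE 0.23, adjusted p = 0.0035, lower in 8 of 8 mice) and the step from Cell Suspension to culture -1.68 (SE 0.26, adjusted p = 1.53e-06). Within the 2 pools that hold both, the Liver sample had 5.33 CPM against 0.626 in culture (pool 2) and 4.28 CPM against 0.394 and 1.01 (pool 5).

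These levels rest on few molecules: 618 Afp UMIs from tissue, 137 from the suspension and 117 from culture. Afp was read in 3.29% of Liver hepatocyte nuclei and in 0.202% of Liver endothelial nuclei, at median depths of 7696 and 3142 UMIs per nucleus. In 419 of those hepatocyte nuclei, 85.0% of them, it was a single UMI. With each nucleus thinned to 1000 UMIs, which left out 508 Liver, 474 Cell Suspension and 83 Primary Hepatocytes nuclei, the shares were 0.449%, 0.206% and 0.102% in the same order. A small number of nuclei held more: 16 Liver nuclei had at least 3 Afp UMIs, and 1 nucleus of mouse 5 had 34, which is 5.50% of all Liver Afp UMIs. Of the Afp UMIs in Liver hepatocyte nuclei 61.3% were unspliced and 16.3% spliced, and in Primary Hepatocytes 41.0% and 43.6%. On spliced counts alone the fall from Liver to Primary Hepatocytes was smaller (-1.43, SE 0.31, adjusted p = 1.52e-04), and Cell Suspension no longer passed the test against Liver (-0.71, adjusted p = 0.136) nor Primary Hepatocytes against Cell Suspension (-0.72, adjusted p = 0.097). The antisense gene Gm43449, which overlaps Afp, moved from 8.30 ± 2.30 to 0.807 ± 0.236 CPM (-3.36, adjusted p = 6.61e-15), and since the sources used here do not say whether counting used strand, reads of the pair cannot be told apart.

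Insulin-like growth factor 2 mRNA-binding protein 2, encoded by Igf2bp2 (ENSMUSG00000033581, chr16:22059009-22163299, minus strand), binds mRNAs and is the only one of the 3 paralogs known to persist in adult tissues. Over the 3 sample types together it was the most counted member in hepatocyte nuclei. In Liver alone Igf2bp3 had more, at 2243 UMIs against 1612 of Igf2bp2. The lowest, median and highest Igf2bp2 samples were at 7.66, 12.9 and 18.4 CPM in Liver. They were at 9.65, 20.3 and 37.4 CPM in Cell Suspension and at 44.0, 69.3 and 94.6 CPM in Primary Hepatocytes. Every cultured sample was above every Liver and every Cell Suspension sample, while the latter groups overlapped. Samples of Primary Hepatocytes and Cell Suspension were separate for 27.3% of all genes. The rise in culture was 2.39 on the log2 scale (SE 0.24, 95% interval 1.93 to 2.85, adjusted p = 3.57e-10 by the quasi-likelihood test of edgeR, adjusted by Benjamini-Hochberg), 5.25-fold, and was seen in 8 of 8 mice. Against Cell Suspension it was 1.65 (SE 0.23, adjusted p = 4.04e-07). The step from Liver to Cell Suspension was 0.74 (SE 0.23, adjusted p = 0.022, higher in 7 of 8 mice), and it lost its call with pool as a covariate (0.53, adjusted p = 0.135), and without mouse 1 (adjusted p = 0.060), mouse 2 (0.055) or mouse 7 (0.050). Within pools, the Liver sample had 10.8 CPM against 50.4 in culture (pool 2) and 11.96 CPM against 94.6 and 81.6 (pool 5).

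More nuclei held Igf2bp2 in culture, and they held more of it. A UMI was read in 7.81% (Liver), 6.66% (Cell Suspension) and 31.0% (Primary Hepatocytes) of hepatocyte nuclei, and in 1.37% of Liver leukocyte nuclei as the class with the lowest share. Thinned to 1000 UMIs per nucleus, the hepatocyte shares were 1.26%, 1.43% and 8.47%. At least 3 UMIs stood in 99 Liver, 63 Cell Suspension and 1210 Primary Hepatocytes nuclei, with 33 UMIs in the highest. In all 4 clusters of cultured hepatocyte nuclei the level of the Primary Hepatocytes nuclei was above the Liver mean, at 55.2, 114, 111 and 153 plain CPM in clusters 0, 1, 14 and 17. Against other cultured nuclei, cluster 0 had the biliary marker Pkhd1 among its 10 leading genes by fold. None of the 4 clusters had a hepatocyte marker among those genes. Biliary markers summed to 267 CPM in cluster 0 against 78.3, 106 and 50.5 CPM in the other 3. Hepatocyte markers summed to 3215, 4159, 2714 and 5202 CPM in clusters 0, 1, 14 and 17. Without cluster 0, an alternative chosen after the data were seen, all 5 calls between Primary Hepatocytes and Liver held, with Igf2bp2 at 2.69, Gpc3 at 2.30 and Afp at -2.65 on the log2 scale. The share of Igf2bp2 UMIs that were unspliced was 87.2% (Liver), 84.1% (Cell Suspension) and 82.4% (Primary Hepatocytes), against 74.5%, 66.9% and 64.7% over all genes. The call between Primary Hepatocytes and Liver held on spliced and on unspliced counts.

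Igf2bp2 was zonated in the tissue. Hepatocytes differ along the lobule from the portal to the central vein, and nuclei with at least 20 UMIs of 10 pericentral and 10 periportal genes were divided within each sample into terciles of that score, a division chosen after the data were seen. In Liver the portal tercile had 23.5 ± 7.57 CPM (range 15.1 to 33.9) and the central tercile 2.61 ± 1.19 CPM (range 1.28 to 4.48). The portal tercile was higher in 8 of 8 mice (central against portal log2 difference -3.08, SE 0.16, adjusted p = 9.42e-15, edgeR with the sample as a block, adjusted by Benjamini-Hochberg). That test called 21.1% of all genes in Liver and 16.4% in Cell Suspension. In the suspension the same order held, with 29.2 ± 11.6 against 5.37 ± 2.63 CPM (-2.48, SE 0.18, adjusted p = 2.33e-25, 8 of 8 mice). On the plain CPM scale, the portal tercile of the 8 Liver samples ran from 15.3 to 36.7 CPM and all hepatocyte nuclei of the 8 Primary Hepatocytes samples from 57.0 to 125 CPM, so the cultured samples lay above even the portal tercile of tissue. Of scored Liver nuclei, 41.5% lay within 0.05 of a tercile boundary, and median depth was 8914 UMIs in the portal and 10897 in the central tercile. Afp was also higher in the portal tercile of Liver, at 5.99 ± 1.67 against 3.11 ± 0.96 CPM (-0.92, adjusted p = 1.17e-04, 7 of 8 mice), and in Cell Suspension the difference of -0.67 did not pass (adjusted p = 0.255). Igf2bp1, Igf2bp3 and Gpc3 were not called between terciles.

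**Figure D2:**
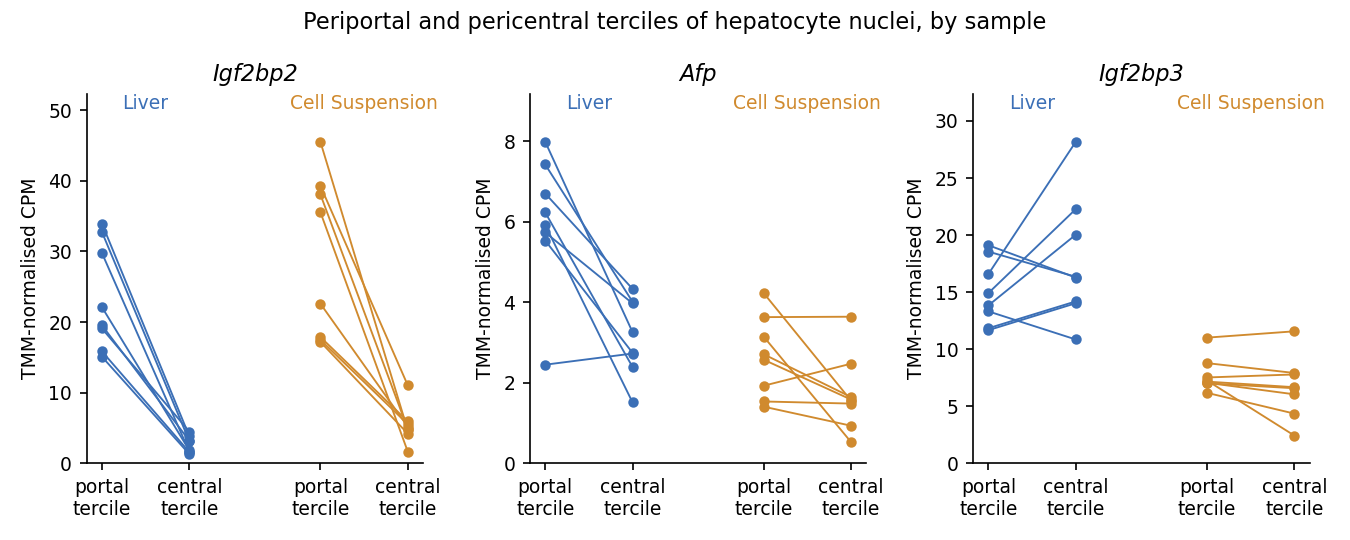
Igf2bp2, Afp and Igf2bp3 in the portal and central terciles of hepatocyte nuclei, in TMM-scaled CPM on linear axes that start at 0, with 1 line per sample joining its terciles, in Liver and Cell Suspension. Igf2bp2 falls from the portal to the central tercile in 8 of 8 Liver and 8 of 8 Cell Suspension samples.

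Igf2bp3 (ENSMUSG00000029814, chr6:49085223-49214957, minus strand), whose protein is a fetal RNA-binding factor found again in tumours, followed another course from its paralog. Its lowest, median and highest Liver samples were at 13.1, 18.7 and 25.0 CPM. The suspension samples were at 6.62, 8.48 and 12.6 CPM and the cultured samples at 10.5, 12.4 and 14.6 CPM. Every suspension sample was below every Liver sample, a separation that 5.49% of all genes showed between these sample types. The fall into Cell Suspension was -1.04 on the log2 scale (SE 0.14, adjusted p = 2.03e-06 by the quasi-likelihood test of edgeR, adjusted by Benjamini-Hochberg, 8 of 8 mice), and the level then rose by 0.51 into culture (SE 0.14, adjusted p = 0.00285, 8 of 8 mice). Primary Hepatocytes stayed under Liver by -0.52 (SE 0.13, adjusted p = 0.00123), a call that held with RLE and with DESeq2 scaling. On plain CPM, which was not tested, the means were 16.8 ± 4.55 in Liver and 16.7 ± 2.14 in Primary Hepatocytes. On spliced counts alone both falls were larger, at -1.75 for Cell Suspension (adjusted p = 4.58e-06) and -1.26 for Primary Hepatocytes (adjusted p = 3.92e-06), while the rise from Cell Suspension into culture did not pass (0.49, adjusted p = 0.125). Plain CPM in Cell Suspension was 7.30 ± 1.83. The overlapping gene Malsu1 had 28.9, 20.4 and 22.1 CPM on average, in the order tissue, suspension, culture. Malsu1 too was thus lowest in the suspension. From tissue to culture it changed by -0.39 on the log2 scale (SE 0.13, adjusted p = 0.012, quasi-likelihood test of edgeR). Reads of Malsu1 and Igf2bp3 cannot be told apart either, with the same limit on strand as for Afp. The part of Malsu1 reads in the Igf2bp3 course was not tested. Thinned to 1000 UMIs, 1.68%, 0.740% and 1.81% of hepatocyte nuclei held an Igf2bp3 UMI.

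Igf2bp1 (ENSMUSG00000013415, chr11:95957163-96005940, minus strand), the third paralog and the most restricted to fetal tissue, was read at 144, 101 and 173 UMIs in hepatocyte nuclei of the 3 sample types. The means were 1.14 ± 0.38 (tissue), 1.94 ± 0.68 (suspension) and 1.17 ± 0.42 CPM (culture), with overlapping ranges. Primary Hepatocytes against Liver differed by 0.04 (adjusted p = 0.911). Against Cell Suspension the difference of -0.67 passed the edgeR test (SE 0.27, adjusted p = 0.0355) but lost its call without mouse 2, 5, 6, 7 or 8 in turn (adjusted p from 0.052 to 0.142) and in 6 further alternatives. On plain CPM, which was not tested, the means were 1.05 ± 0.38 (tissue), 1.64 ± 0.67 (suspension) and 1.58 ± 0.64 (culture). Cell Suspension against Liver did not pass (0.71, adjusted p = 0.060) but passed in 7 of 22 alternatives, among them DESeq2 (0.80, adjusted p = 0.0156), without mouse 1 (0.92, adjusted p = 0.023) and without mouse 3 (0.76, adjusted p = 0.028).

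Igf2 and H19, the imprinted pair, were close to absent from the counts. Igf2 (ENSMUSG00000048583, chr7:142650766-142666816, minus strand) had 10, 3 and 11 UMIs in Liver, Cell Suspension and Primary Hepatocytes hepatocyte nuclei. Its difference between Primary Hepatocytes and Liver was -0.09 (95% interval -1.41 to 1.23, adjusted p = 0.928 by the quasi-likelihood test of edgeR, adjusted by Benjamini-Hochberg). H19 (ENSMUSG00000000031, chr7:142575529-142578143, minus strand) had 0, 0 and 1 UMIs there and 5 UMIs in all nuclei of the series. A count of 0 allows up to 0.0213 CPM in Liver and 0.0443 CPM in Cell Suspension hepatocyte nuclei (3 counts over the group, counting error only). The messenger for which the Igf2bp proteins are named was thus at a few UMIs where Igf2bp2 had 9863.

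Glypican-3, the proteoglycan encoded by Gpc3 (ENSMUSG00000055653, chrX:52272426-52613950, minus strand), is a tissue marker of hepatocellular carcinoma. Its lowest, median and highest samples were at 0.933, 1.71 and 2.31 CPM in Liver hepatocyte nuclei and at 0.662, 1.53 and 3.43 CPM in Cell Suspension. In Primary Hepatocytes they were at 4.62, 6.85 and 11.6 CPM. Every cultured sample was above every sample of both other types. The rise against Liver was 2.24 on the log2 scale (SE 0.26, 4.73-fold, adjusted p = 1.19e-08 by the quasi-likelihood test of edgeR, adjusted by Benjamini-Hochberg, 8 of 8 mice), and against Cell Suspension 2.00 (SE 0.28, adjusted p = 4.64e-07). Cell Suspension and Liver differed by 0.24 (SE 0.31, adjusted p = 0.666). Within pools the Liver sample had 1.77 CPM against 4.76 in culture (pool 2) and 0.933 CPM against 8.74 and 11.6 (pool 5).

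The rise of Gpc3 was one of unspliced RNA. The gene spans 342 kb, and 94.7% of its UMIs in Liver and 97.9% in Primary Hepatocytes hepatocyte nuclei were unspliced. On spliced counts alone the difference between Primary Hepatocytes and Liver was 0.67 (SE 0.56, adjusted p = 0.314) and on spliced plus ambiguous counts 0.75 (adjusted p = 0.276), so the call rests on unspliced counts. With so few spliced UMIs, these fits cannot decide whether spliced Gpc3 RNA rose. The antisense gene Gm14582, which overlaps Gpc3, went from 1 UMI in Liver to 37 in Primary Hepatocytes (3.96, adjusted p = 8.52e-07), with the same limit on strand as for Afp. Thinned to 1000 UMIs, 0.214% (Liver), 0.247% (Cell Suspension) and 1.04% (Primary Hepatocytes) of hepatocyte nuclei held a Gpc3 UMI.

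In tissue, most Gpc3 RNA lay outside hepatocytes. Of 856 Liver Gpc3 UMIs, 527 (61.6%) came from 157 nuclei, 0.784% of the Liver nuclei, that the authors had named biliary and whose genes were mesothelial: the 5 mesothelial markers (Msln, Upk3b, Wt1, Gpm6a, Muc16), all detected, summed to a median of 5247 CPM there against 4.20 CPM in Liver hepatocyte nuclei, while of 7 biliary markers Sox9 and Spp1 were at 0 and the other 5 were detected, the list summing to a median of 315 CPM against 155 CPM in Liver hepatocyte nuclei. These mesothelial-like nuclei had 1002 plain CPM of Gpc3. Against hepatocyte nuclei of the same mice, Gpc3 was higher in mesothelial-like nuclei by 8.85 (SE 0.27, adjusted p = 3.66e-49), in stellate nuclei by 3.09 (adjusted p = 5.13e-14) and in endothelial nuclei by 2.14 on the log2 scale (adjusted p = 4.07e-10), all by edgeR's quasi-likelihood test with the mouse as a block. The mesothelial-like test and marker medians rest on the 4 Liver samples with at least 10 such nuclei. Mesothelial markers were also higher in Liver stellate and endothelial nuclei, at medians of 72.5 and 90.6 CPM against 4.20 CPM in hepatocyte nuclei. Their part in these Gpc3 differences was not tested. Only 1 mesothelial-like nucleus was found in Cell Suspension and none in Primary Hepatocytes. Over all nuclei Gpc3 was lower in Cell Suspension than in Liver, at 2.08 ± 0.97 against 5.55 ± 2.32 CPM (-1.43, adjusted p = 6.46e-04), and not called higher in culture, at 8.03 ± 2.99 CPM (0.53, adjusted p = 0.078). Without mouse 1 the latter difference passed (0.71, adjusted p = 0.024), as it did with pool as a covariate (0.99, adjusted p = 0.034). With the mesothelial-like nuclei left out, an alternative chosen after the data were seen, the 2 differences were -0.16 (adjusted p = 0.738) and 1.80 (adjusted p = 1.50e-07). Since these nuclei held 61.6% of Liver Gpc3 UMIs, a lower Liver level followed from leaving them out. The edgeR fit without them is therefore no separate support. Over all nuclei 3 members were called for Primary Hepatocytes against Liver, where 55.7% of genes were, 4 for Cell Suspension against Liver (20.6%) and 4 for Primary Hepatocytes against Cell Suspension (50.8%). In such sums over all nuclei, fewer cells of a type and less RNA per cell cannot be told apart.

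**Figure D3:**
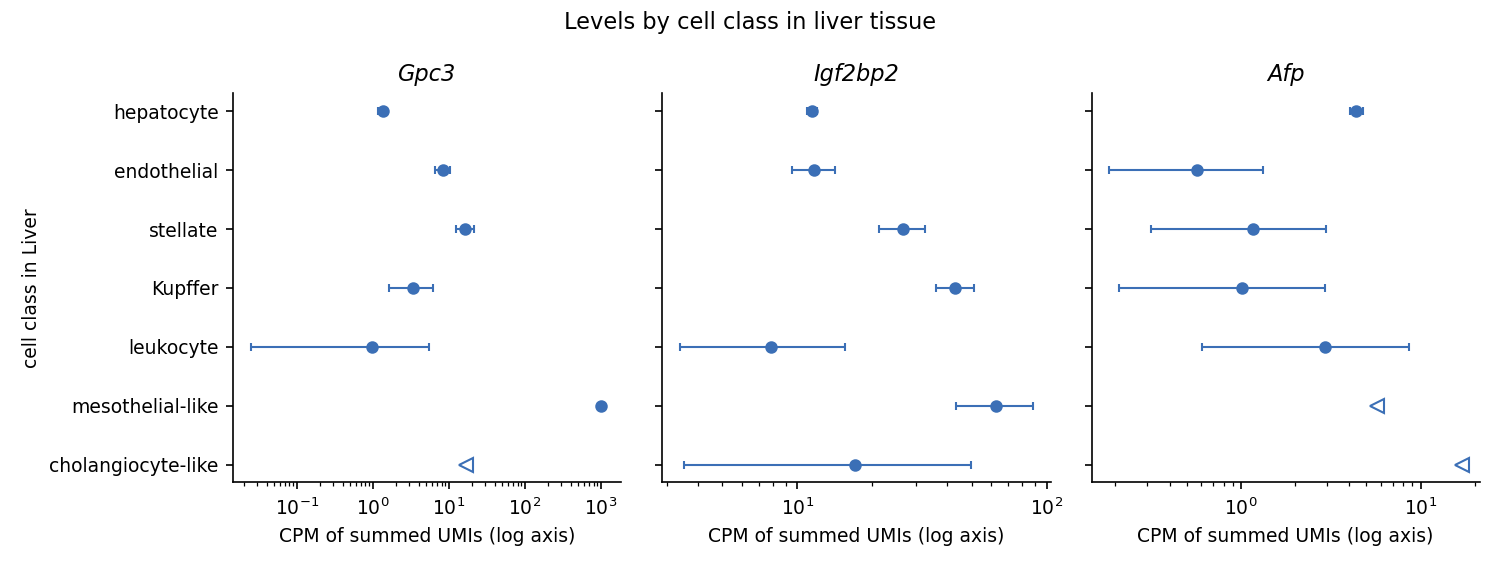
Plain CPM of Gpc3, Igf2bp2 and Afp by cell class of Liver on log axes that differ between panels, from UMIs summed over all Liver nuclei of the class. Points are the summed level, bars exact Poisson intervals that cover counting error only, and open left-pointing triangles the level that a count of 0 allows; Gpc3 stands at 1002 CPM in the mesothelial-like nuclei.

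Between Primary Hepatocytes and Liver the Gpc3 difference was not the same in endothelial and hepatocyte nuclei, and no such gap was called for Igf2bp2. Liver endothelial nuclei were mainly of clusters 3, 24 and 26 (1982, 269 and 221 nuclei). Of 1809 cultured endothelial nuclei, 1733 were of cluster 12. Cluster 24, with 0 cultured nuclei, had 696 CPM of the 5 mesothelial markers. In endothelial nuclei 4 members had enough counts for the test between sample types: Gpc3, Igf2bp1, Igf2bp2 and Igf2bp3. In endothelial nuclei Gpc3 was at 8.60 ± 4.96 CPM in Liver, 3.71 ± 4.93 CPM in Cell Suspension and 4.36 ± 3.08 CPM in Primary Hepatocytes, with -0.67 on the log2 scale between the last and the first (SE 0.44, adjusted p = 0.255, higher in 3 of 8 mice), so no direction was shown there. These levels rest on 73, 7 and 19 UMIs. The edgeR test called neither the step into Cell Suspension (-1.44, adjusted p = 0.173) nor the step from there into culture (0.77, adjusted p = 0.482). Mesothelial markers summed in endothelial nuclei to medians of 90.6 CPM (tissue), 24.4 CPM (suspension) and 8.31 CPM (culture), against 4.20 CPM in Liver hepatocyte nuclei. The part of such RNA, and of the clusters, in the Gpc3 difference was not tested. The endothelial effect minus the hepatocyte effect was -3.13 (SE 0.43, adjusted p = 1.79e-08, edgeR with an interaction term), a test that called 27.2% of all genes. Igf2bp2 rose in endothelial nuclei from 11.9 ± 5.19 through 30.5 ± 22.0 to 67.1 ± 24.9 CPM (Primary Hepatocytes against Liver 2.47, SE 0.28, adjusted p = 1.09e-09, with overlapping samples), and its effect differed from that in hepatocyte nuclei by -0.05 (SE 0.28, adjusted p = 0.963). Within pools, the Liver sample had 14.8 CPM of endothelial Igf2bp2 against 16.0 in culture (pool 2) and 19.9 CPM against 106 and 64.7 (pool 5). Of these 4 members, Igf2bp2 alone was called between Primary Hepatocytes and Liver in endothelial nuclei, where 33.8% of all genes were, and for Primary Hepatocytes against Cell Suspension (1.30, adjusted p = 0.0013), where 20% were. Between Cell Suspension and Liver, Igf2bp2 (1.18, adjusted p = 0.037) and Igf2bp3 (-1.18, adjusted p = 0.048) were called, against 3.9% of all genes. With the mouse as a replicate block the Igf2bp2 call held (1.24, adjusted p = 0.015) and the Igf2bp3 call did not (-1.15, adjusted p = 0.058). The Igf2bp2 call was lost without mouse 1, 3, 7 or 8 (adjusted p from 0.075 to 0.218) and the Igf2bp3 call without any mouse but mouse 6 (0.059 to 0.222). Hepatocyte-marker RNA was read in endothelial nuclei too, where the 9 hepatocyte markers, all detected, summed to a median of 2799 CPM (tissue), 3028 CPM (suspension) and 2783 CPM (culture), against 13229 and 3353 CPM in hepatocyte nuclei of tissue and of culture. Per 1000 UMIs of these markers, endothelial and hepatocyte nuclei had a median of 4.08 and 0.833 Igf2bp2 UMIs in Liver, with the endothelial value higher in 7 of 8 samples, and of 28.4 and 26.8 in culture, higher in 4 of 8. The part of hepatocyte RNA in the endothelial Igf2bp2 level was not tested.

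Against hepatocyte nuclei of Liver, 3 members were called in endothelial, 3 in Kupffer, 4 in stellate, 2 in leukocyte and 4 in mesothelial-like nuclei. Afp lay mostly in hepatocyte nuclei, with 97.5% of its Liver UMIs. These were 74.9% of Liver nuclei and had the highest median depth, so their share of all Liver UMIs was higher still. By edgeR, Afp was lower in endothelial (-3.29, adjusted p = 4.99e-09), Kupffer (-2.73, adjusted p = 1.40e-04) and stellate nuclei (-2.33, adjusted p = 4.32e-04). In leukocyte nuclei Afp was not called (-1.61, adjusted p = 0.076). Igf2bp2 was higher in Kupffer nuclei, the resident macrophages, than in hepatocyte nuclei (1.27, adjusted p = 2.60e-06), and in stellate nuclei (0.82, adjusted p = 0.0046). Cd24a was higher in Kupffer (4.29, adjusted p = 7.16e-06) and leukocyte nuclei (5.19, adjusted p = 4.17e-06), from 6 and 5 UMIs against 5 in hepatocyte nuclei. Calls that single mice decided were Cd24a in stellate nuclei (2.87, adjusted p = 0.253 without mouse 2 and 0.238 without mouse 7), Igf2 in endothelial nuclei (1.81 from 4 UMIs, 0.838 without mouse 5 and 0.134 without mouse 8) and Igf2bp2 in mesothelial-like (1.73, 0.125 without mouse 3) and leukocyte nuclei (-1.48, 0.104, 0.051 and 0.065 without mouse 3, 5 and 7). Afp had 0 UMIs in mesothelial-like nuclei, and that call was lost in 6 of 8 fits without 1 mouse. Igf2bp1 was higher in mesothelial-like nuclei (4.16, SE 0.64, adjusted p = 5.61e-08), at 32.3 plain CPM. Igf2bp3 was called in no class. The background shares of called genes in these comparisons with hepatocyte nuclei were 48% for endothelial, 42.6% for Kupffer, 42% for stellate, 34.8% for leukocyte and 26.1% for mesothelial-like nuclei. Between Cell Suspension and Liver, none of the 3 members tested in stellate nuclei (Igf2bp2, Igf2bp3 and Gpc3) was called, where 3.19% of genes were, and none of the 4 tested in Kupffer nuclei (the same and Cd24a), where 1.3% were, by the quasi-likelihood test of edgeR, adjusted by Benjamini-Hochberg. An unadjusted p under 0.05 was found for 0 of them.

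Cd24a (ENSMUSG00000047139, chr10:43578284-43584265, plus strand), a surface glycoprotein of progenitor, biliary and immune cells, was rare in hepatocyte nuclei. It had 5 UMIs in tissue, 5 in the suspension and 37 in culture, of which 6 lay in 1 nucleus of mouse 6. The means were 0.0453 ± 0.0698, 0.0716 ± 0.122 and 0.247 ± 0.123 CPM with overlapping ranges. Primary Hepatocytes exceeded Liver by 2.40 on the log2 scale (SE 0.57, adjusted p = 5.77e-04 by the quasi-likelihood test of edgeR, adjusted by Benjamini-Hochberg, higher in 7 of 8 mice), but it did not pass with pool as a covariate (1.56, adjusted p = 0.219), nor over all nuclei (1.06, adjusted p = 0.131). Leukocyte markers summed to 11.3 to 26.9 CPM in Liver and 29.2 to 48.1 CPM in Primary Hepatocytes hepatocyte nuclei, and biliary markers to 127 to 189 and 127 to 196 CPM, with none of either list at 0. The part of these cells in the Cd24a counts was not tested. Dlk1 (ENSMUSG00000040856, chr12:109452823-109463336, plus strand) had 13, 10 and 17 UMIs, and its difference of 0.17 between Primary Hepatocytes and Liver did not pass (adjusted p = 0.835).

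**Figure D4:**
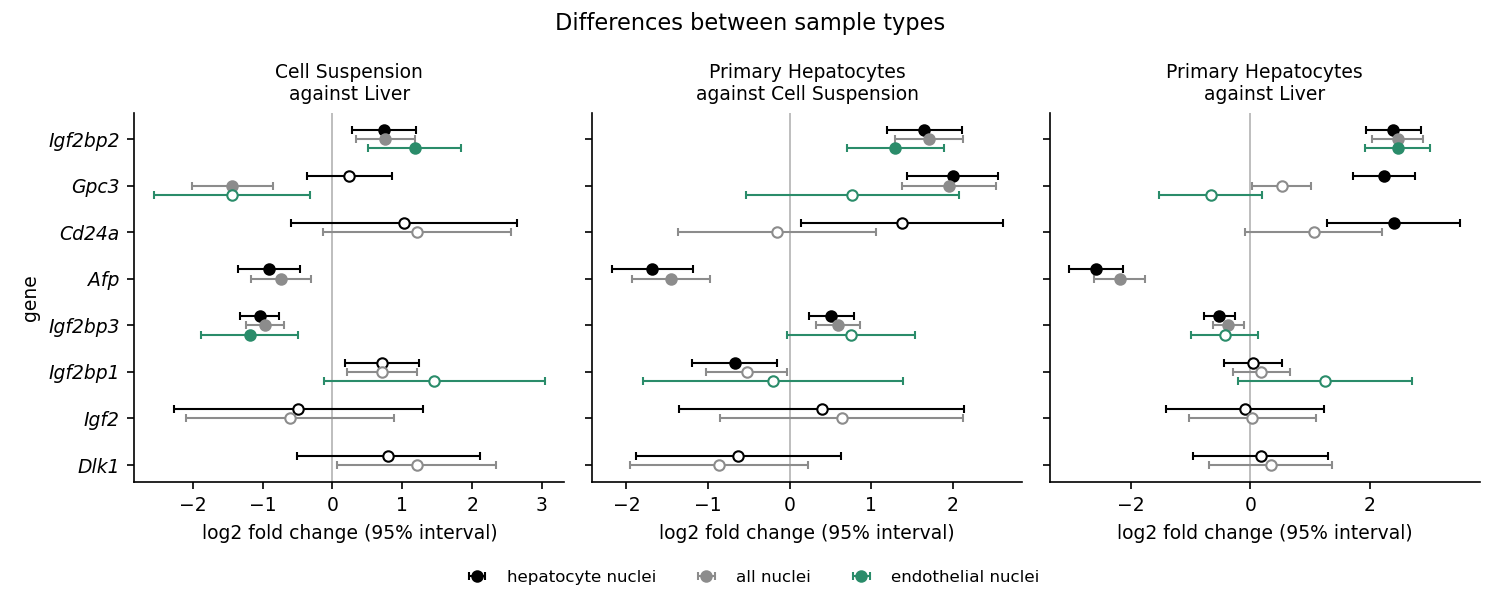
Log2 differences for each comparison of sample types, with 95% intervals, of the 8 members tested in hepatocyte and in all nuclei and of the 4 tested in endothelial nuclei. Filled points passed the edgeR test at an adjusted p of 0.05 and open points did not; in hepatocyte nuclei Igf2bp2 at 2.39 and Gpc3 at 2.24 lie right of 0 and Afp at -2.59 left of 0 between Primary Hepatocytes and Liver.

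The wider gene lists around the members were written with earlier results of these data known and describe the surroundings only. Their counts stand beside 27.4% of all genes called higher and 26.7% called lower in hepatocyte nuclei between Primary Hepatocytes and Liver. Of 13 known regulators of Afp, 10 fell and 1 rose in hepatocyte nuclei between Primary Hepatocytes and Liver, with a median log2 difference of -1.22 against 0.04 over all genes. The activators Cebpa (-2.17), Foxa3 (-2.45) and Nr5a2 (-2.70) fell, and so did the repressors Zbtb20, from 4921 to 2407 CPM (-1.03, adjusted p = 1.2e-04), and Zhx2, from 238 to 202 CPM (-0.23, adjusted p = 0.041), all by the quasi-likelihood test of edgeR, adjusted by Benjamini-Hochberg. Samples of the 2 sample types overlapped for Zhx2 and were separate for Zbtb20. The regulator that rose is not among those named. The part of any regulator in the fall of Afp was not tested. The albumin family, which shares the locus of Afp, was called lower in 3 of 3 genes. Alb fell from 3114 to 1029 CPM and Afm from 213 to 10.3 CPM, both with separate samples. Gc, the vitamin D-binding protein gene, went from 1230 to 987 CPM with overlapping samples (-0.32, adjusted p = 0.042 by the edgeR test).

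Of 14 genes of the IGF axis 2 rose and 7 fell, with a median of -0.56. The hormone gene Igf1 fell from 1102 ± 1183 to 165 ± 70.3 CPM, with overlapping samples. The binding protein genes Igfbp2 and Igfbp4 fell from 347 to 9.21 CPM and from 410 to 15.2 CPM. Igf2r, the receptor that clears Igf2, rose from 29.7 to 49.8 CPM. Igf1r, the signalling receptor, was at 4.64 and 5.68 CPM and did not pass (adjusted p = 0.106 by edgeR's quasi-likelihood test). Of 18 imprinted genes 8 rose and 5 fell (median 0.38), among them the amino acid transporter gene Slc38a4, from 2128 to 263 CPM. Grb10, an adaptor that restrains insulin signalling, went from 5.31 ± 5.32 to 23.9 ± 8.52 CPM. Meg3, the noncoding RNA of the Dlk1 domain, went from 6.62 ± 4.17 to 1.68 ± 1.82 CPM. Samples of the sample types overlapped for Grb10 and for Meg3.

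Of 10 genes of an oncofetal growth program 6 rose and 1 fell (median 0.68), with Hmga2, a chromatin protein gene known to activate Igf2bp2, from 2.34 to 20.2 CPM, Myc from 7.09 to 102 CPM and Cd44 from 1.67 to 15.1 CPM. Of 12 hepatoblast and progenitor genes tested out of 13 listed, 9 rose and 2 fell (median 1.70). Pkm, the pyruvate kinase gene of fetal and growing tissue, went from 1.48 through 9.38 to 226 CPM, and Sox4 from 0.284 to 8.69 CPM, while Tbx3, a hepatoblast transcription factor, fell from 61.0 to 4.52 CPM. Of 5 other glypicans and Dlk2, 1 rose and 2 fell (median -0.25), and Gpc4 fell from 257 to 57.0 CPM and Gpc6 from 13.7 to 10.8 CPM while Gpc3 rose. Samples overlapped for Gpc6 (-0.34, adjusted p = 0.024 by the edgeR test). In Cell Suspension against Liver, where 7.69% of all genes were called higher and 13.8% lower, the progenitor list had 2 higher and 1 lower, the regulator list 2 and 2, the IGF axis 2 and 1, the imprinted list 1 and 1, the growth program 1 and 1, the glypican list 1 and 0 and the albumin family 0 and 0.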

How the data were processed

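Nuclei from Liver, Cell Suspension and Primary Hepatocytes of 8 mice were hashtagged, pooled by 4 and sequenced as single-nucleus 3′ libraries. The authors quantified reads with Salmon Alevin and Alevin-fry against spliced and unspliced GRCm38 transcripts, and the deposited matrices hold raw UMI counts per barcode for spliced, unspliced and ambiguous RNA. The authors' table gives, for each nucleus that passed their filters (hashtag doublets and scDblFinder doublets removed), its sample, cluster and cell type as labels, its UMI count, and a hashtag margin as a deposited fraction. The tag CD2 was assigned to mouse 2 of the suspension, which no other tag named. No further doublet caller was run and no nucleus was removed. Whether counting used strand is not given in the sources used here. The deposited hashtag counts and the study's bulk RNA and protein data were not used here.

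The 3 RNA states were summed, and UMIs were added per sample over hepatocyte, endothelial and all nuclei. The authors' cultured nuclei were divided by cluster and marker lists into hepatocyte, endothelial and stellate nuclei, with cluster 8 left unnamed, and their biliary nuclei into mesothelial-like and cholangiocyte-like nuclei. Cultured clusters other than 8, 12 and 27 were taken as hepatocyte nuclei. Genes with at least 10 counts entered edgeR 4.0.16, run in R 4.3.3 (TMM scaling, quasi-likelihood test, 1 coefficient per sample type over all 24 samples, Benjamini-Hochberg adjustment over all genes tested, threshold 0.05). Each of the 24 samples had at least 10 endothelial nuclei. Liver cell classes were compared with the mouse as a block. On simulated counts for Primary Hepatocytes against Liver the hepatocyte fit (26213 genes) recovered 62% of genes changed by 1 and 100% of those changed by 2 on the log2 scale. The endothelial fit (17779 genes) recovered 57% and 99%. In each simulation 100 genes of each size were changed. In the data 54.1% of genes were called in hepatocyte and 33.8% in endothelial nuclei, so the shares are not the recovery of the real fits. The changed genes were drawn from those with a mean of at least 10 counts per sample, with the same simulated spread for all genes. These shares therefore do not apply to members below that mean. Such members were Igf2, Dlk1 and Cd24a in hepatocyte nuclei and Gpc3 and Igf2bp1 in endothelial nuclei. DESeq2 1.42.0 and other settings served as alternatives. Python 3.11.15 with scipy 1.17.1, pandas 2.3.3 and matplotlib 3.10.9 did the rest. Intervals for counts are exact Poisson intervals at 95% and cover counting error only.

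Samples with the same number were taken to come from the same mouse. The study's methods take a lobe, a suspension and a culture from each liver but do not say what the sample numbers mean. Over 3841 genes of at least 50 CPM, the deviations of same-numbered Liver and Cell Suspension samples correlated at 0.436 to 0.903 (median 0.761), and those of Liver and Primary Hepatocytes at a median of 0.061. By these deviations, 7 samples matched best with their own number between Liver and Cell Suspension. Only 2 did so between Liver and Primary Hepatocytes, and 1 between Cell Suspension and Primary Hepatocytes. For culture, the match of samples to mice, and the counts of mice based on it, thus rest on the numbers alone. The members and the gene lists were chosen with earlier results of these data known. Named list genes are Alb, Zhx2, Zbtb20, Igf2r, Igf1r and, per list, up to 3 called genes with the largest change in hepatocyte nuclei between Primary Hepatocytes and Liver and a group mean of at least 5 CPM.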

Additional observations from a re-analysis of the deposited data

Results flagged for a closer look

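Igf2bp1 was high in the Liver sample of mouse 1, at 1.94 CPM in hepatocyte nuclei (33 UMIs), where the nearest Liver sample had 1.23 and the other 7 a median of 1.09 CPM. Over all nuclei the same sample had 2.02 CPM (39 UMIs), with the nearest at 1.34 CPM. In the Cell Suspension sample of mouse 3, Igf2bp1 was low over all nuclei, at 0.453 CPM (3 UMIs), where the nearest sample had 1.84 and the median of the others was 2.32 CPM. Each lay further from its group than Dixon's 95% limit for 8 samples, 33 groups of samples were examined, and about 1 group in 20 is picked out by chance.

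For Gpc3 the endothelial minus the hepatocyte difference between Primary Hepatocytes and Liver was -3.13 on the log2 scale (SE 0.43, adjusted p = 1.79e-08, edgeR's quasi-likelihood test of the interaction with Benjamini-Hochberg adjustment). Endothelial nuclei of Liver and of culture were mostly of different clusters, and the part of this was not tested. Gpc3 was picked out because its effects in the cell types differ by that test. The endothelial nuclei alone gave -0.67 (adjusted p = 0.255) and the hepatocyte nuclei 2.24.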

How the results depend on the processing

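Of 1544 member values recomputed under alternative settings, 1364 kept direction and side of the threshold, 32 passed it newly, 81 lost it and 67 changed sign. In hepatocyte nuclei Afp, Igf2bp2 and Igf2bp3 kept their calls between Primary Hepatocytes and Liver in all alternatives, and Gpc3 lost its call on spliced counts and on spliced plus ambiguous counts. Depth limits Igf2, Dlk1, H19 and Cd24a, at a few UMIs per sample. The cause of the changes below was not tested. With the mouse as a replicate block, the number of members called in endothelial nuclei between Cell Suspension and Liver fell from 2 to 1, the Igf2bp3 call being lost, and the block left the other member counts within 1.5 times.

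Members called, where the count moved. On spliced counts alone, 1 member was called between Primary Hepatocytes and Cell Suspension in hepatocyte nuclei (5 in the main test), 1 in all nuclei (4) and 0 in endothelial nuclei (1), and on spliced plus ambiguous counts 3 in hepatocyte nuclei. Over all nuclei between Primary Hepatocytes and Liver, 5 were called with nuclei of the upper hashtag margin (3 in the main test), and between Cell Suspension and Liver 1 after thinning (4). In endothelial nuclei between Primary Hepatocytes and Liver, 2 were called with pool as a covariate, on spliced and on spliced plus ambiguous counts (1 in the main test). Between Cell Suspension and Liver there (2 in the main test), 1 was called by DESeq2, with RLE factors, with filterByExpr, on spliced, unspliced and spliced plus ambiguous counts, and 0 with pool as a covariate, after thinning and with the upper hashtag margin, for which 10 of 24 samples held at least 10 endothelial nuclei. With 1 mouse left out it ran from 0 to 2. Against Liver hepatocyte nuclei, filterByExpr, which tests fewer genes, called 1 member in endothelial (3), 1 in Kupffer (3), 0 in leukocyte (2), 2 in mesothelial-like (4) and 2 in stellate nuclei (4). With 1 mouse left out, leukocyte nuclei had 1 to 2 and mesothelial-like nuclei 2 to 4.

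Changes of sign in hepatocyte nuclei. For Primary Hepatocytes against Liver, Igf2 was 1.12 with pool as a covariate, 0.14 with the upper hashtag margin and 0.14 with cluster 8 added. Igf2bp1 was -0.13 on spliced and -0.078 on spliced plus ambiguous counts, where Dlk1 was -0.27. Between Cell Suspension and Liver, Gpc3 was -0.45 on spliced and -0.069 on spliced plus ambiguous counts, where Dlk1 was -2.50, and Dlk1 was 2.23 between Primary Hepatocytes and Cell Suspension. Without cultured cluster 0, Igf2 was -0.20 in the latter comparison.

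Changes of sign over all nuclei. Between Primary Hepatocytes and Liver, Igf2bp1 was -0.34 on spliced, -0.27 on spliced plus ambiguous and -0.23 on thinned counts. Gpc3 was -0.89 on spliced and -0.74 on spliced plus ambiguous counts, where Igf2 was -0.36 and Dlk1 -0.12. Between Cell Suspension and Liver on the last counts, Igf2bp1 was -0.014 and Dlk1 -0.40. For Primary Hepatocytes against Cell Suspension, Dlk1 was 0.28 on those counts, and Cd24a 0.014 on thinned counts and 0.65 with the upper hashtag margin.

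Changes of sign in endothelial nuclei and Liver classes. For Primary Hepatocytes against Liver, endothelial Igf2bp3 was 0.087 with pool as a covariate and 0.18 on unspliced counts. Igf2bp2 between Cell Suspension and Liver was -0.80 with the upper hashtag margin. Between Primary Hepatocytes and Cell Suspension, Igf2bp1 was 0.62 with pool as a covariate, Igf2bp3 -0.42 on spliced plus ambiguous and -0.11 on thinned counts, and Gpc3 -0.42 on thinned counts. With filterByExpr, Igf2bp3 against hepatocyte nuclei was 0.16 in Kupffer, 0.074 in leukocyte and 0.21 in stellate nuclei.

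Ranges with 1 mouse left out, where a sign changed. In hepatocyte nuclei between Primary Hepatocytes and Liver, Igf2 ran from -0.40 to 0.55, Igf2bp1 from -0.043 to 0.14 and Dlk1 from -0.20 to 0.86. Cd24a ran from -0.073 to 1.66 between Cell Suspension and Liver, and Igf2 from -0.16 to 1.499 between Primary Hepatocytes and Cell Suspension. Over all nuclei Igf2 ran from -0.30 to 0.28 between Primary Hepatocytes and Liver, and Cd24a from -0.54 to 0.48 between Primary Hepatocytes and Cell Suspension. Endothelial Igf2bp1 ran from -0.66 to 0.39 between Primary Hepatocytes and Cell Suspension. In Kupffer against hepatocyte nuclei of Liver, Igf2bp3 ran from -0.13 to 0.065, Igf2 from -1.83 to 2.04, Igf2bp1 from -0.20 to 0.66 and Dlk1 from -1.68 to 1.72. In stellate nuclei Igf2bp3 ran from -0.053 to 0.099, Igf2 from -1.68 to 1.71 and Igf2bp1 from -0.99 to 0.38, and in mesothelial-like nuclei Igf2bp3 from -0.28 to 0.81.

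Shares of hepatocyte nuclei with a UMI, thinned to 500 in place of 1000 UMIs and averaged over samples, were 0.256% (Liver), 0.0726% (Cell Suspension) and 0.0467% (Primary Hepatocytes) for Afp. They were 0.760% and 4.78% for Igf2bp2 and 0.840% and 0.782% for Igf2bp3 in Liver and Primary Hepatocytes, and 0.583% for Gpc3 in Primary Hepatocytes. The median of all genes between Cell Suspension and Liver in hepatocyte nuclei moved to 0.116 with DESeq2's scaling, and the share of called genes that were higher from 35.8% to 48.9%. After thinning, 3221 genes were called there in place of 5698, and in endothelial nuclei between Primary Hepatocytes and Liver 2465 in place of 6181. The endothelial all-gene median moved to 0.176 with DESeq2 and 0.132 with RLE factors. With filterByExpr 126 genes in place of 431 were called in stellate nuclei, 86 in place of 180 in Kupffer nuclei, and 7172 in place of 11751 between Liver endothelial and hepatocyte nuclei.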

Other observations

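Genes that went with the members over 15 combinations of cell class and sample type were ranked by Pearson's r of log2(mean CPM + 1), among 17815 genes of at least 5 CPM. For Igf2bp2 the highest were Phf23 and AC124553.1 (0.91 each) and A930037H05Rik (0.89). For Igf2bp1 they were Cntnap3 (0.97), Pcnx2 (0.94) and Musk (0.92), for Igf2bp3 Ncoa5 (0.91), Atp5f1 and Frg1 (0.90 each), for Gpc3 Kcnd3 (0.94), Kank4 (0.93) and Rbm28 (0.92), and for Cd24a Ildr1 (0.98), Degs2 and Maats1 (0.90 each). Igf2bp1, Gpc3 and the genes listed with them were all highest in mesothelial-like Liver nuclei. Cd24a and its listed genes were highest in cholangiocyte-like Liver nuclei, where Cd24a had 3 UMIs in 63 nuclei. How far each r rests on that 1 combination was not tested. The combinations share libraries, mice and pools, and these values describe them only.

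Of 8 relations between sample types over the 8 mice (4 members, levels in hepatocyte nuclei), 1 passed by Pearson's r and 0 by Spearman's rho after adjustment. For culture the match of samples to mice rests on the sample numbers alone. Afp in Liver and Cell Suspension correlated at Pearson's r of 0.888 (exact permutation p = 0.0040, adjusted 0.032) and Spearman's rho of 0.810 (exact permutation p = 0.022, adjusted 0.122), and without the 2 mice farthest from the Liver median r was 0.642. Against Primary Hepatocytes the values were 0.086 (exact permutation p = 0.806, adjusted 0.806) and -0.095 (exact permutation p = 0.840, adjusted 0.840). Igf2bp3 in Liver and Cell Suspension correlated at r of 0.793 (exact permutation p = 0.018, adjusted 0.071) and rho of 0.738 (exact permutation p = 0.046, adjusted 0.122), and at r of 0.861 without the 2 farthest mice. Igf2bp2 in Liver and Primary Hepatocytes correlated at r of 0.759 (exact permutation p = 0.040, adjusted 0.106) and rho of 0.762 (exact permutation p = 0.037, adjusted 0.122), and at r of 0.472 without them. Same-mouse Liver and Cell Suspension samples deviated together over genes in general too, at a median r of 0.761 across 3841 genes, which are not independent replicates.

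Barcodes of 10 to 100 UMIs outside the authors' table, taken as RNA free of nuclei, held 63 Igf2bp2 UMIs (0 to 64.5 CPM by pool), 23 Igf2bp3 UMIs (8.26 to 30.4 CPM), 13 Gpc3 UMIs (0 to 13.0 CPM), 6 Igf2bp1 UMIs (0 to 11.0 CPM), 5 Afp UMIs (0 to 11.0 CPM) and 2 Dlk1 UMIs (0 to 5.18 CPM). Cd24a, H19 and Igf2 had 0. A count of 0 allows 4.96 to 32.9 CPM by pool there, above the level of these genes in hepatocyte nuclei. It therefore does not show their free RNA to be absent.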
